A study of Rattus norvegicus with 218 samples.

Results

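Transcript of Th, the gene of tyrosine hydroxylase, was detected in 55 of 98 single neurons taken from the dorsal vagal motor nucleus (DMV) of rats, and the other 43 neurons gave no Th value. The whole series held 213 samples, of which 115 were single neurons. A single neuron was kept where 42 or more assays (25% of the panel) gave a threshold cycle (Ct), the PCR cycle at which product is detected. A lower Ct means more transcript. This left out 17 neurons. The kept neurons nearest the limit had 44 and 46 assays with a value, 1 of the 2 with Th, and the nearest left out had 41 and 40, with Th in 0 of the 2. The groups were chosen by whether Th had a Ct, so the Ct values of Th are given as a description and were not tested. The share of neurons with Th was tested only between left and right, a label that the grouping did not use. With Th left out, the groups were compared on 164 other genes.

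All animals were adult male Sprague Dawley rats. Naive rats had no surgery, rats with remote ischemic preconditioning (RIPC) had the femoral vessels of both legs tied off and released under ketamine and xylazine, and sham rats had the same exposure with no tie. Tissue was taken 2.5 hours after reperfusion. Frozen brainstem was cut at 10 µm, and cells stained for the neuronal protein NeuN were collected by laser capture from left or right DMV and assayed by microfluidic RT-qPCR. The kept neurons came from 9 of 10 animals, with 57 neurons from naive, 16 from sham and 25 from RIPC rats. Naive animal 3 alone gave 54. The animal of 1 neuron was in doubt, since its label named RIPC animal 3 while its title followed those of RIPC animal 2. It was kept as labelled. Both groups of neurons contain cells of all 3 conditions. Neurons were compared within the 6 animals that had at least 2 neurons of each kind.

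Tyrosine hydroxylase catalyses the rate-limiting step of catecholamine synthesis, the conversion of tyrosine to L-DOPA. Dopamine beta-hydroxylase, encoded by Dbh, then makes noradrenaline from dopamine. Most DMV neurons are cholinergic motor neurons of the vagus, which use choline acetyltransferase (Chat), and neurons that make catecholamines are known both within the nucleus and in the adjoining nucleus of the solitary tract.

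The Th call was not always the same in a second run. Such a run was deposited for 5 of the kept neurons, and Th had a value in the first run of 0 of the 5. The second run of 3 of them gave Th, at a Ct of 8.68 in a neuron of RIPC animal 2 and of 13.0 and 12.2 in 2 neurons of naive animal 3. These are not marginal values, since 8.68 was among the lowest Th Ct of any neuron. The other 2 neurons lacked Th in both runs. Other genes differed between runs as well, and the share of assays with the same outcome in both runs was 60.1% to 73.8%. Over the assays with a value in both, the Ct values of the 2 runs correlated at a Pearson r of 0.37, 0.85, 0.68, 0.35 and 0.88 (16 to 74 assays, given as a description). When all single neurons were ranked by the correlation of their first run with a given second run, the neuron's own first run came 90th of 109 and 1st of 105 for the 2 neurons of RIPC animal 2, and 31st of 114, 100th of 111 and 1st of 112 for the 3 of naive animal 3. By this correlation the closest match was another neuron for 3 of the 5. Ranked by the share of assays with the same outcome, the own first run came 105th, 45th, 36th, 32nd and 28th among the single neurons. By that measure another neuron was closer for each of the 5. It is therefore uncertain that each second run holds the same neuron as its first. Following the rule for the groups, a value in 1 of the runs was enough for a gene to count as detected. The comparisons were also made on first runs only and without these 5 neurons, and neither gave a call.

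The captured cells carried neuronal transcripts in both groups. Camk2a, a kinase subunit of neurons, was detected in 55 of 55 neurons with Th and 40 of 43 without. Eno2, the neuronal enolase, was detected in 54 and 38, and the sodium channel gene Scn2a in 54 and 40. Map2, a microtubule protein of dendrites, was found in 92.7% of neurons with Th against 67.4% of those without, and Rgs4 in 90.9% against 81.4%. Gfap, which marks astrocytes, was detected in 87.3% of neurons with Th and 72.1% of those without. Its adjusted difference (defined below with the other genes) was 0.09 ± 11.7 percentage points, and its part in the other results was not tested.

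Th covered a wide range among the neurons that had it. Its Ct ran from 8.62 to 21.8 with a median of 14.3, close to the median of 15.1 over all 6959 values of the kept neurons. Only 2 of the 55 neurons had a Th Ct above 20, the values being 20.5 and 21.8, whereas 5.14% of all values lay above 20. Expressed as a level, which is minus Ct relative to the median of 35 widely detected genes and so is on a log2 scale in cycles, Th ranged from -6.80 to 6.87 with a median of -0.24. Each animal with more than a pair of such neurons spanned several cycles. In naive animal 3 the 29 levels ran from -6.23 to 6.87 with a median of -0.24. The 4 levels of RIPC animal 2 ran from -3.31 to 5.71 and the 7 of RIPC animal 3 from -6.80 to 1.61. The 5.71 was that of the neuron with Th in its second run only, relative to values averaged over both runs. Within the second run its level was 4.03. The 5 levels of sham animal 1 ran from -2.38 to 3.66. Levels in the 3 conditions overlapped, with medians of -0.13 in 31 naive, 2.18 in 11 sham and -1.29 in 13 RIPC neurons.

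**Figure D1:**
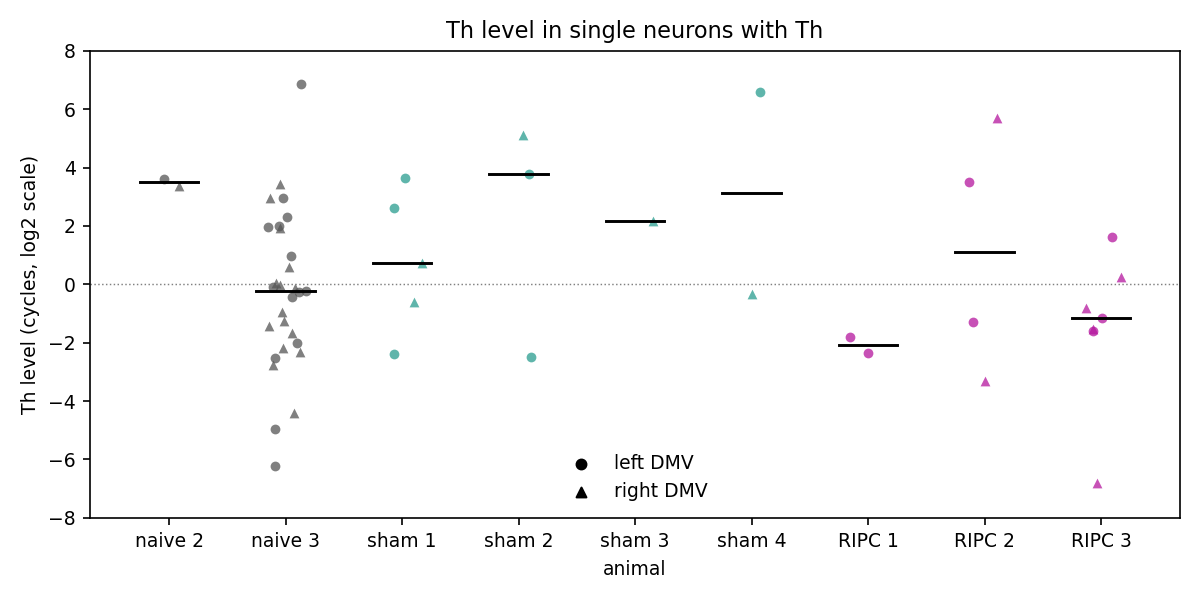
Th level of each single neuron with Th (y axis, minus Ct relative to the median of 35 widely detected genes, in cycles on a log2 scale) by animal (x axis), with circles for left and triangles for right DMV and a line at each animal's median. Levels ran from -6.80 to 6.87, and the ranges of the animals with 4 or more such neurons overlapped.

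Neurons with Th were found in every animal that gave kept single neurons. Their share was 54.4% of naive, 68.8% of sham and 52.0% of RIPC neurons, with 95% Wilson intervals of 41.6 to 66.6%, 44.4 to 85.8% and 33.5 to 70.0%. These intervals overlap and cover counting error only. Within naive animal 3, 29 of 54 neurons had Th (53.7%). In the animals with 10 or 11 neurons the share was 4 of 10 in RIPC animal 2 and 7 of 11 in RIPC animal 3.

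On the left Th had a value in 28 of 52 neurons (53.8%) and on the right in 27 of 46 (58.7%). In naive animal 3 the counts were 14 of 27 on the left and 15 of 27 on the right. Over the 6 animals with at least 2 neurons a side the left minus right difference ran from -38.1 to 100 percentage points with a median of -5.19, and the mean of 7.20 ± 48.1 (SD, n = 6) did not pass an exact sign-flip permutation test over animals (two-sided p = 0.906, the smallest possible being 0.0312). The value of 100 came from RIPC animal 1, where both left neurons had Th and both right neurons lacked it. Without that animal the mean was -11.4 points (exact permutation p = 0.25, n = 5).

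The number of genes detected, Th left out, ran from 45 to 145 with a median of 72 in the 55 neurons with Th and from 44 to 104 with a median of 62 in the 43 without. In the 5 neurons with a second run a gene found in either run counted, which raised their number. One of them, in naive animal 3, had 88 and 107 assays in its runs and 121 in both together. Of the 5, 3 had Th through the second run only. With the neurons ordered by this number and split into 4 sets, 8 of 25 had Th in the lowest set (44 to 57 genes), then 11 of 24, 19 of 24 and, in the highest set (79 to 145 genes), 17 of 25. The ranges of the groups overlapped.

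The difference in genes detected varied between animals. In all, 6 animals had at least 2 neurons with and 2 without Th and could be compared within themselves. The mean difference was 60.5 genes in RIPC animal 1, 14.4 in naive animal 3, 12.9 in RIPC animal 2, 1.30 in sham animal 1, -0.50 in sham animal 4 and -2.50 in RIPC animal 3. It averaged 14.3 ± 23.7 genes (SD, n = 6) and was above 0 in 4 of 6 animals (exact sign-flip permutation p = 0.188, two-sided). Without RIPC animal 1 the mean was 5.12 genes (exact permutation p = 0.375, n = 5). In that animal the 2 neurons with Th were both from the left and held 106 and 113 genes, and the 2 without Th were both from the right and held 44 and 54, so Th, side and number of genes cannot be told apart there. Among the 55 neurons with Th, the Th level was not higher in neurons with more genes (Spearman rho -0.26, a description over neurons that share animals). For the raw Th Ct the rho was -0.04, so the relation seen for the level depended on its centring.

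**Figure D2:**
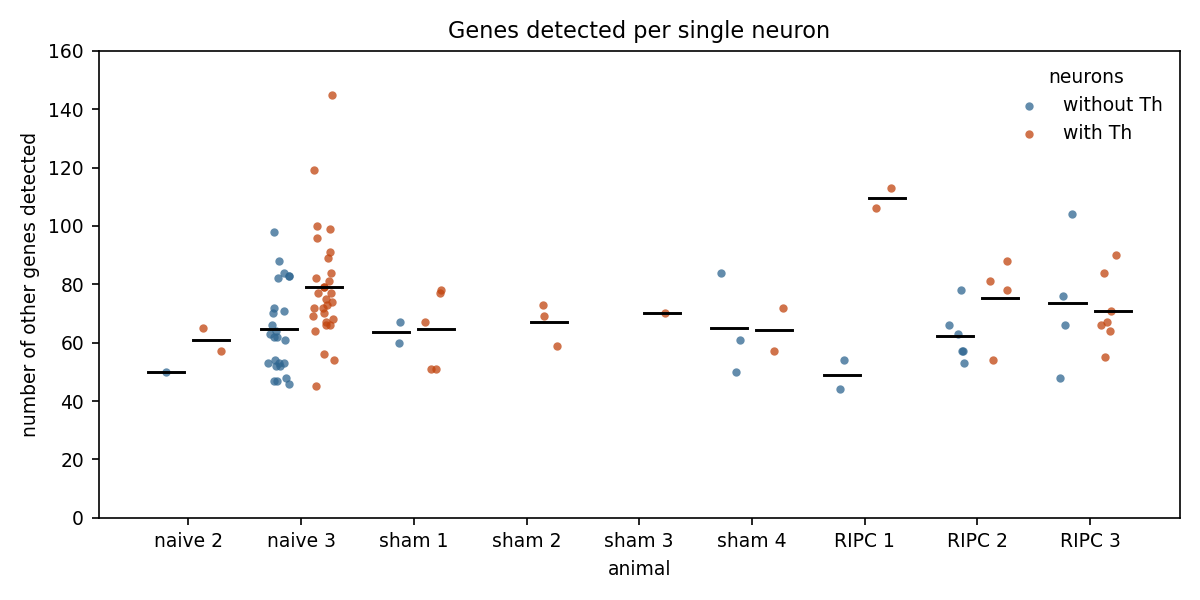
Number of the 164 other genes detected (y axis) in each single neuron with Th (orange) and without Th (blue) by animal (x axis), with lines at the means. The gap was 60.5 genes in RIPC animal 1 and 14.4 in naive animal 3, and between -2.50 and 1.30 in sham animals 1 and 4 and RIPC animal 3.

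Detection of a gene was compared as the share of neurons with a value, with Th minus without Th within each animal, and was averaged over the 6 animals with equal weight. With no term for the number of genes detected, 96 of 121 genes had a higher share in neurons with Th and the median difference was 11.6 percentage points. With that number as a covariate (adjusted difference), 66 genes were on the higher side and 55 on the lower, and the median was 0.73 points. Detection went up with the number of genes in 117 of the 121 genes, by a median of 6.57 points per 10 further genes. Because the covariate counts the same panel of genes, adjusted differences have to centre near 0 and slopes have to be mostly above 0, so this change is a property of the adjustment and not a finding. In an animal where both groups had the same share of neurons with a gene, the raw difference was 0 and the sign of the adjusted value came from the covariate alone. This held in at least 1 animal for 70 of the 121 genes. Where animals are counted below by the direction of detection in single neurons, the raw count is therefore added if it differs. For genes given no such count, raw and adjusted directions can differ as well.

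No gene differed in detection beyond the spread between animals. In limma with Benjamini-Hochberg adjustment 0 of 121 genes passed (0%), with 4 at an unadjusted p under 0.05 and a smallest adjusted p of 0.797. A logistic test over neurons with a term for animal also called 0, with 13 at an unadjusted p under 0.05 and a smallest adjusted p of 0.207. The median standard error of an adjusted difference was 12.3 points, so the 6 animals, 3 of which had 2 neurons in a group, could show large differences only. The limma p-values measure the spread between these 6 animals, and those of the logistic test the spread between neurons, which are not independent within an animal.

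**Figure D3:**
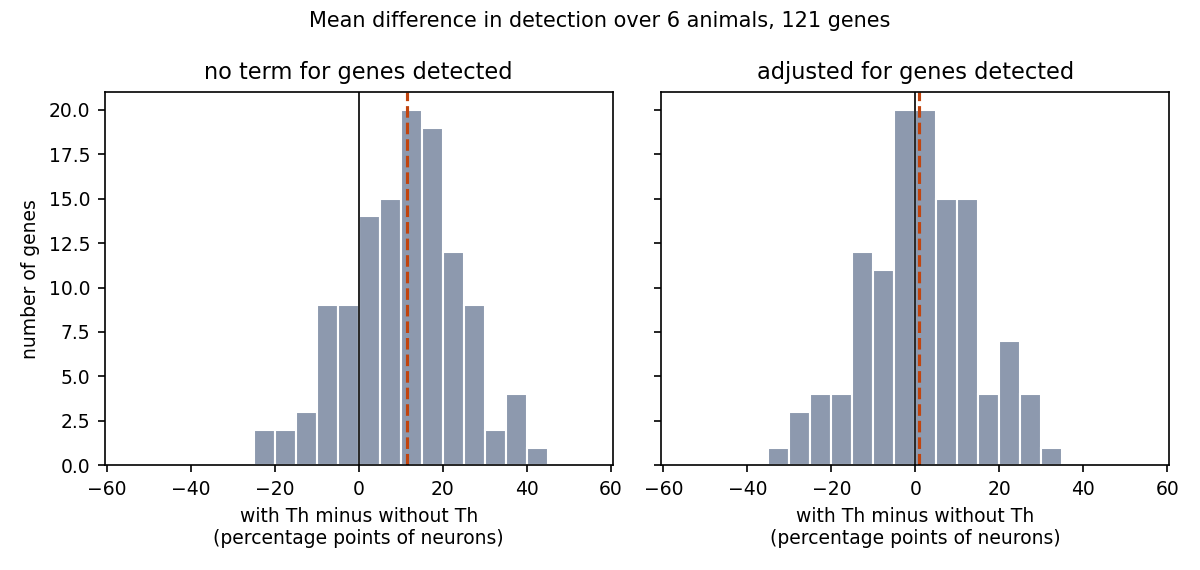
Histograms of the difference in detection of 121 genes, neurons with Th minus neurons without (x axis, percentage points, mean over 6 animals; y axis, number of genes), with no term for the number of genes detected (left) and with it (right), the dashed line marking the median. The medians were 11.6 and 0.73 points, and the adjustment itself requires values centred near 0.

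No transmitter gene passed the test. Dbh had a value in 13 of 55 neurons with Th (23.6%, Wilson interval 14.4 to 36.3%) and in 7 of 43 without (16.3%, 8.12 to 30.0%). In naive animal 3 the counts were 7 of 29 and 5 of 25. The adjusted Dbh difference was 8.56 ± 10.6 points (SE), from -5.36 to 30.4 over the animals, higher in 3 of 6 (limma adjusted p = 0.947, exact permutation p = 0.25). The raw difference was above 0 in 5 animals and 0 in 1 (exact permutation p of the raw values 0.0625). Thus 42 of 55 neurons with Th gave no Dbh value at this limit of detection.

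Chat was detected in 43 of 55 neurons with Th (78.2%, interval 65.6 to 87.1%) and 25 of 43 without (58.1%, 43.3 to 71.6%). In naive animal 3 it was present in 23 of 29 and 14 of 25, in RIPC animal 3 in 5 of 7 and 2 of 4, and in RIPC animal 2 in 3 of 4 and 4 of 6. After adjustment for the number of genes detected the difference was 11.7 ± 13.2 points, with 4 of 6 animals above 0 (limma adjusted p = 0.947, exact permutation p = 0.5). The raw difference was above 0 in 5 animals and 0 in RIPC animal 1 (exact permutation p of the raw values 0.0625). Most neurons with Th also gave a Chat value, and the difference was within the spread between animals. Ache, which encodes the enzyme that breaks down acetylcholine, was detected in 92.7% and 88.4% (adjusted difference -0.15 ± 11.8 points).

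The genes of GABA synthesis were detected in both groups. Gad1 had a value in 20 of 55 neurons with Th and 15 of 43 without, with an adjusted difference of -3.55 ± 15.0 points. Gad2 had a value in 23 of 55 and 23 of 43. Its adjusted difference was -14.5 ± 12.1 points, below 0 in 4 of 6 animals (limma adjusted p = 0.947), and in naive animal 3 it was detected in 8 of 29 neurons with Th and 12 of 25 without. Chat with neither Gad gene was the pattern of 27 of 55 neurons with Th (49.1%) and 14 of 43 without (32.6%), and either Gad gene without Chat that of 10 (18.2%) and 14 (32.6%). Both kinds of gene were detected together in 16 of 55 and 11 of 43. Intervals of these shares overlapped, at 36.4 to 61.9% and 20.5 to 47.5% for the pattern of Chat alone.

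Among the dopamine receptors, Drd1 was detected in 81.8% of neurons with Th and 81.4% of those without, and its adjusted difference was -19.2 ± 11.0 points, below 0 in 5 of 6 animals (exact permutation p = 0.0625, limma adjusted p = 0.797). The raw difference was below 0 in 3 animals, above 0 in 2 and 0 in RIPC animal 1, where 2 of 2 neurons of each group had Drd1 and the adjusted value of -48.7 came from the covariate alone (exact permutation p of the raw values 0.375). Drd2, which includes the autoreceptor of dopamine neurons, was detected in 41.8% and 41.9% (adjusted -16.6 ± 13.4 points, below 0 in 4 of 6 animals, the raw difference in 2 of 6). Drd3 had a value in 2 neurons of each group and was not tested.

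In the study's hierarchical clustering of genes, Th fell in a cluster with Cartpt, Galr1, Grpr, Oprm1, Sstr2 and Dbh. Since that grouping was made on these samples, their direction is not independent evidence. With adjustment, 5 of the 6 were on the higher side in neurons with Th, with a median of 13.0 points against 0.73 over all genes tested, and 0 passed the test. Galr1, a receptor for the peptide galanin, was detected in 32 of 55 and 18 of 43 (adjusted 19.0 ± 14.4 points). Grpr, the receptor of gastrin-releasing peptide, was detected in 22 of 55 and 8 of 43 (16.6 ± 18.7 points). The animals disagreed on Grpr: it was found in 4 of 4 against 1 of 6 neurons in RIPC animal 2 and 12 of 29 against 4 of 25 in naive animal 3, but in 0 of 2 against 3 of 3 in sham animal 4. Sstr2, a somatostatin receptor, was detected in 20 of 55 and 6 of 43 (14.4 ± 14.6 points), with 4 of 4 against 0 of 6 in RIPC animal 2 and 1 of 7 against 2 of 4 in RIPC animal 3. Cartpt, the precursor of the CART peptides, was detected in 27 of 55 and 16 of 43 (11.5 ± 12.2 points). Oprm1, the mu opioid receptor, was detected in 27 of 55 and 24 of 43. It was on the lower side (-25.8 ± 11.9 points, 5 of 6 animals and 4 of 6 by the raw difference, limma unadjusted p = 0.0480 and adjusted p = 0.797).

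The 10 genes with the smallest p on the higher side encode ion channels, receptors and a transcription factor. Gabrb2, a GABA-A receptor subunit, had the smallest. It was detected in 23 of 29 against 14 of 25 neurons in naive animal 3, 2 of 2 against 0 of 2 in RIPC animal 1, 5 of 7 against 2 of 4 in RIPC animal 3, 3 of 5 against 0 of 2 in sham animal 1, 1 of 2 against 0 of 3 in sham animal 4 and 3 of 4 against 4 of 6 in RIPC animal 2. The adjusted differences ran from -5.43 to 59.2 points, with RIPC animal 2 alone below 0 and a mean of 28.9 ± 11.7 (exact permutation p = 0.0625, limma unadjusted p = 0.0267 and adjusted p = 0.797). Foxo3, a transcription factor of the stress response, was detected in 51 of 55 neurons with Th and 26 of 43 without, and had the smallest p in the logistic test over neurons (adjusted p = 0.207). Its adjusted difference was 27.1 ± 14.3 points, from -16.4 in sham animal 4 to 99.8 in sham animal 1. Calcium channel genes in the set were Cacna1d, an L-type channel (46 of 55 against 22 of 43, adjusted 22.5 ± 11.7 points), and Cacna1g, a low-voltage T-type channel (22 of 55 against 5 of 43, 20.4 ± 11.3 points). Both were above 0 in 5 of 6 animals. The raw difference was above 0 in 6 of 6 animals for 2 of the 121 genes, Cacna1g and Gabrb2, and below 0 in 6 of 6 for 0. For both genes the exact permutation p of the raw values was 0.0312, the smallest possible. Raw values have no term for the number of genes detected, and this p is not adjusted for the number of genes tested. The pacemaker channel gene Hcn4 and the sodium channel gene Scn1a had adjusted differences of 26.6 ± 14.9 and 21.4 ± 12.4 points, which were 11.2 and 13.1 without sham animal 4.

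The remaining 4 were receptors. Oprk1, the kappa opioid receptor, had an adjusted difference of 32.2 ± 15.8 points, with 22 of 29 against 19 of 25 neurons in naive animal 3, where its adjusted value was -6.39. The angiotensin receptor gene Agtr1a was detected in 7 of 7 against 0 of 4 neurons in RIPC animal 3 but in 6 of 29 against 3 of 25 in naive animal 3 (mean 26.8 ± 14.8 points). The histamine receptor gene Hrh4 had 21.0 ± 11.1 points, with naive animal 3 at -5.40 and a mean of 7.76 with animals weighted by their neurons. Htr6, a serotonin receptor, had 20.2 ± 11.4 points (limma adjusted p = 0.797). Its raw difference was above 0 in 5 of 6 animals and 0 in sham animal 4, where it was found in 0 of 2 and 0 of 3 neurons (exact permutation p of the raw values 0.0625).

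On the lower side, Chrm2, the M2 muscarinic receptor, had the smallest p. It was detected in 37 of 55 neurons with Th and 35 of 43 without. In naive animal 3 the counts were 25 of 29 and 20 of 25, and the adjusted value there was -0.74. The values of the other animals ran from -79.6 in RIPC animal 1 to 27.2 points in RIPC animal 2, with a mean of -31.6 ± 13.7 (5 of 6 below 0 and 4 of 6 by the raw difference, exact permutation p = 0.0938, limma unadjusted p = 0.0365 and adjusted p = 0.797). The bombesin-family receptor gene Nmbr (-29.6 ± 13.3), the somatostatin receptor gene Sstr3 (-26.4 ± 12.5) and Agtrap, which encodes a partner of the angiotensin receptor (-21.1 ± 11.2), were on the lower side, and naive animal 3, which held most neurons, was above 0 for each of them. The raw difference was below 0 in 4 of 6 animals for Nmbr and in 3 of 6 for Sstr3 and Agtrap, and was 0 in 1, 2 and 2 animals, among them RIPC animal 1 for Agtrap (2 of 2 and 2 of 2 neurons, adjusted -42.9). With animals weighted by their neurons these differences were -6.72, -2.10 and -3.32 points. The others were Oprm1 and Drd1, given above, Tacr1, the substance P receptor (-22.3 ± 17.3), and Htr1d, a serotonin receptor (-21.3 ± 14.0). Also lower were Trhr, the thyrotropin-releasing hormone receptor (-21.1 ± 14.8), and Gabre, a GABA-A receptor subunit (-18.9 ± 11.8). In RIPC animal 1, where the groups differed by 60.5 genes, the adjustment lowered the values. Tacr1, Trhr and Nmbr went there from a raw -50 to -104.9, -97.8 and -93.2 points. The Tacr1 value is lower than any difference in shares can be. Sstr3 went from 0 (1 of 2 and 1 of 2 neurons) to -68.0 and Gabre from 50 to -25.6. Htr1d stayed above 0 (30.1). Without this animal the means of Tacr1, Trhr, Nmbr, Sstr3 and Gabre were -5.96, -5.70, -17.0, -18.1 and -17.4. The shares over all neurons and the adjusted values of Nmbr, Sstr3, Agtrap, Gabre, Tacr1 and Drd1 pointed in opposite directions, as each was detected more often with Th over all neurons, at 29.1% against 18.6% for Sstr3 and 40.0% against 30.2% for Gabre.

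**Figure D4:**
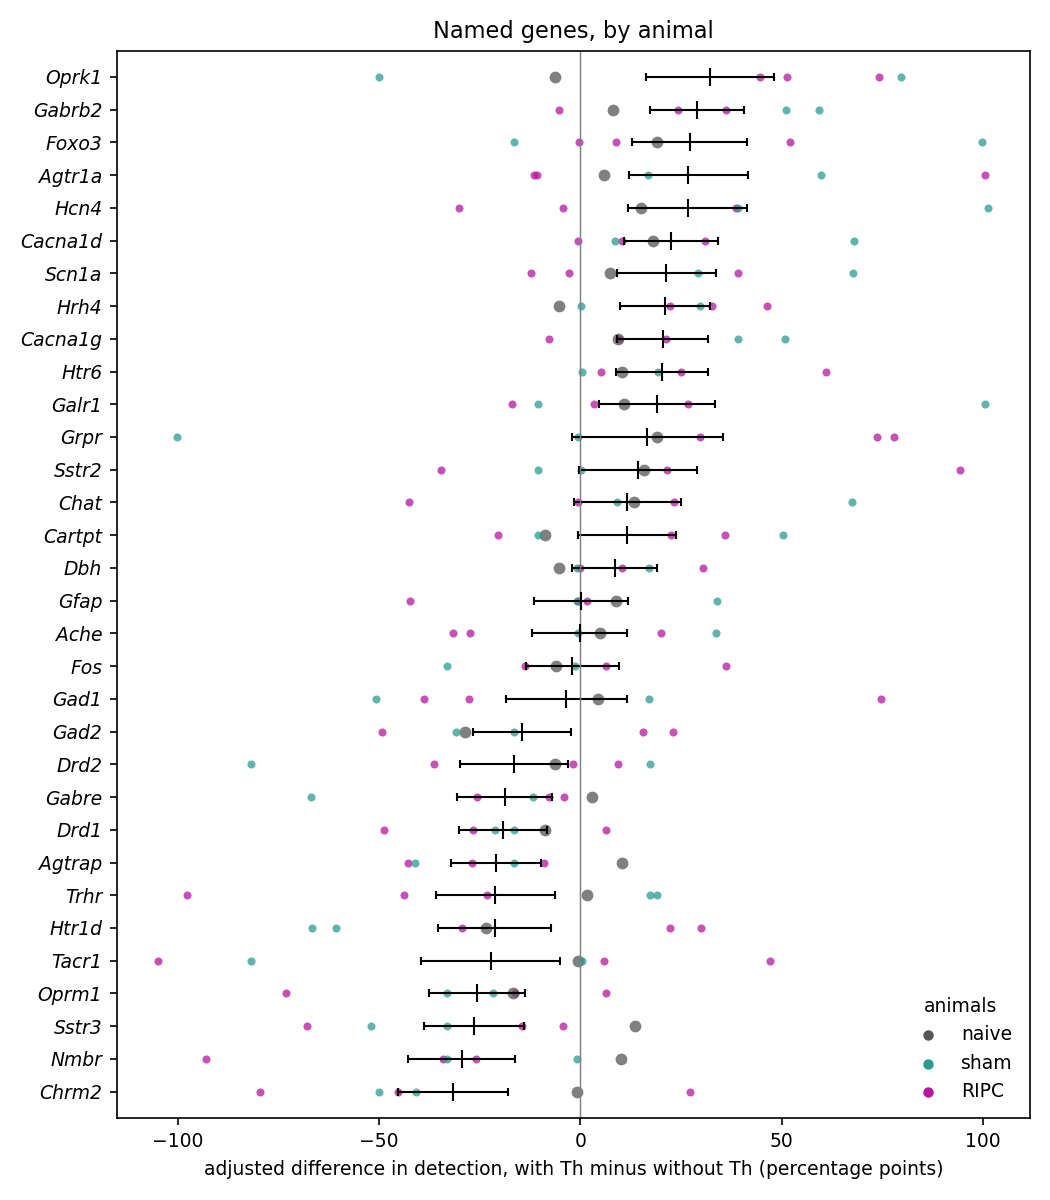
Adjusted difference in detection, neurons with Th minus neurons without (x axis, percentage points), for 32 named genes (y axis), with 1 point per animal coloured by condition, the larger grey point being naive animal 3, and a bar for the mean ± SE over 6 animals. For most genes the animals lay on both sides of 0. A value can come from the covariate alone, as that of Htr6 in sham animal 4 (0.33 points) did, where no neuron had the gene.

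Fos, an early gene of neuronal activity, was detected in 9 of 55 neurons with Th and 5 of 43 without (16.4% and 11.6%). With no term for genes detected its difference was 13.2 points and with the term it was -1.98 ± 11.5.

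Lists of genes by role gave medians on both sides of that over all genes, and in every list 0 genes passed the test. Of the channel genes of the HCN, potassium, sodium and TRP families 8 of 9 were on the higher side with a median of 10.7 points, and of the GABA-A receptor subunits 5 of 6 (10.1 points). Calcium channels had 5 of 6 on the higher side (6.44 points). Peptide and hormone receptors had 15 of 26 (3.87 points), adrenergic receptors 2 of 4 (-0.16 points), histamine receptors 3 of 4 (2.42 points), and the transcription factors of activity and stress 4 of 7 (2.29 points). Serotonin receptors had 3 of 9 on the higher side (-5.17 points), acetylcholine receptors 2 of 7 (-0.71 points) and neuropeptides 3 of 8 (-1.18 points). Before adjustment all of these medians were between 2.82 and 19.3 points.

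Levels were compared among the neurons in which a gene was detected, with the same covariate, for 71 genes that had at least 2 such neurons in each group in 3 or more animals. In limma 0 of 71 passed (0%), with 5 at an unadjusted p under 0.05 and a smallest adjusted p of 0.473. The test over neurons with a term for animal called 1 of 71 (1.41%). Levels were higher with Th in 25 genes and lower in 46, with a median of -0.20 cycles. This split is one of detected neurons only. With undetected values set below the lowest level 38 of the 71 were higher. On raw Ct 30 were higher, and with animals weighted by their neurons 19.

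Sstr4, a somatostatin receptor, was the gene called over neurons. Its level ran from -6.30 to 0.66 with a median of -1.98 in 33 neurons with Th and from -3.28 to 2.07 with a median of -0.40 in 24 without. The groups overlapped. Only 3 animals had enough neurons, and all 3 were on the lower side, at -4.55 in RIPC animal 2, where 3 and 2 neurons were compared, -1.31 in RIPC animal 3 and -1.26 in naive animal 3. The mean was -2.37 ± 0.79 cycles (limma adjusted p = 0.473, exact permutation p = 0.25, the smallest that 3 animals allow). Over neurons it was -1.57 ± 0.43 cycles (adjusted p = 0.0479), without the animal term the adjusted p was 0.0526, and in naive animal 3 alone the value was -1.36 ± 0.58 (adjusted p = 0.607).

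Creb1, the transcription factor activated through cyclic AMP, had the smallest p over animals. Its level had a median of -0.36 in 48 neurons with Th (-4.84 to 1.16) and 0.00 in 39 without (-2.44 to 2.26). All 5 animals with a value were on the lower side, from -1.64 to -0.29 cycles with a mean of -0.99 ± 0.32 (limma adjusted p = 0.473, exact permutation p = 0.0625, the smallest possible with 5). Also on the lower side were Hrh2, a histamine receptor (-1.19 ± 0.43, 4 of 4 animals), the glucocorticoid receptor gene Nr3c1 (-1.39 ± 0.54, 3 of 4) and the potassium channel gene Kcnn4 (-0.89 ± 0.36, 4 of 4).

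On the higher side, Oxtr, the oxytocin receptor, was above 0 in 6 of 6 animals at 0.03 to 6.54 cycles, with a mean of 1.79 ± 0.80 (exact permutation p = 0.0312, limma adjusted p = 0.473). Its highest value was that of RIPC animal 1, without which the mean was 0.83. Gfap had 0.65 ± 0.29 cycles, with 5 of 6 animals above 0 and naive animal 3 at -0.24. Chrna7, the alpha-7 nicotinic receptor subunit, had 1.05 ± 0.49 (5 of 5 animals), the AP-1 factor gene JunD 0.72 ± 0.40 (5 of 5) and the GABA-A subunit gene Gabra2 1.35 ± 0.72 (3 of 3). Without RIPC animal 2 Chrna7 was at 0.51 and without sham animal 4 JunD was at 0.35, and in naive animal 3 alone they were at 0.09 and 0.08. Among transmitter genes the level of Chat differed by -0.98 ± 0.87 cycles with animals from -4.32 to 0.95, and that of Ache by 0.65 ± 0.59. The levels of Camk2a, Drd1, Galr1 and Cartpt differed by 0.08 ± 0.33, 0.23 ± 0.69, 0.63 ± 0.73 and -0.80 ± 0.74 cycles.

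Pools of several neurons, from animals partly the same as those of the single-neuron contrast, were used as samples that the grouping of single neurons did not use. Of 88 pools with 42 or more assays 66 had Th. Pools with Th held 96.0 genes on average and those without 69.3. Th in a pool can come from any of its cells, so a difference between pools need not lie in the cells with Th. In 5 animals with at least 2 pools of each kind (naive animals 2 and 3, sham animals 1 and 2 and RIPC animal 2), with the number of genes and of cells as covariates, 1 of 129 genes passed (0.775%).

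That gene was Chrm3, the M3 muscarinic receptor. It was detected in 42 of 66 pools with Th and 7 of 22 without. By animal the counts were 8 of 8 against 1 of 3 in naive animal 3, 5 of 6 against 0 of 2 in RIPC animal 2, 6 of 8 against 0 of 2 in naive animal 2, 4 of 8 against 0 of 3 in sham animal 2 and 2 of 5 against 0 of 2 in sham animal 1. The adjusted difference was 56.5 ± 11.9 points and above 0 in 5 of 5 animals (limma adjusted p = 0.0433, exact permutation p = 0.0625, the smallest possible). Each animal had 2 or 3 pools without Th, and the call was lost without naive animal 2, naive animal 3, RIPC animal 2 or sham animal 2 (adjusted p of 0.134 to 0.292), while the difference stayed between 52.4 and 65.2 points.

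In single neurons Chrm3 was detected in 20 of 55 with Th and 9 of 43 without, with an adjusted difference of 0.41 ± 12.1 points and animals from -46.5 to 34.9. Whether pools and single neurons differed in this was not tested. In pools Sstr2 had an adjusted difference of 40.7 ± 13.5 points (43 of 66 against 2 of 22 pools, 4 of 5 animals, limma adjusted p = 0.41), and Gabre one of -39.4 ± 11.0 points (0 of 5 animals above 0, adjusted p = 0.204). Both had the same adjusted sign in single neurons. There the raw Gabre difference was above 0 in 3 animals and below 0 in 3. The Sstr2 difference in single neurons was -1.94 points without RIPC animal 2, which was also among the animals of the pools. Others had opposite signs. Trhr was at 38.2 ± 14.9 points in pools (limma unadjusted p = 0.0232 and adjusted p = 0.472), Htr6 at -26.7 ± 12.8, Cacna1g at -21.6 ± 13.3 and Gabrb2 at -9.54 ± 11.7. Of 31 named genes tested in both, 18 had the same sign. Of the 113 genes tested in both kinds of sample 66 had the same sign (58.4%), and the Spearman rho over genes, which are not independent and come partly from the same animals, was 0.08.

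**Figure D5:**
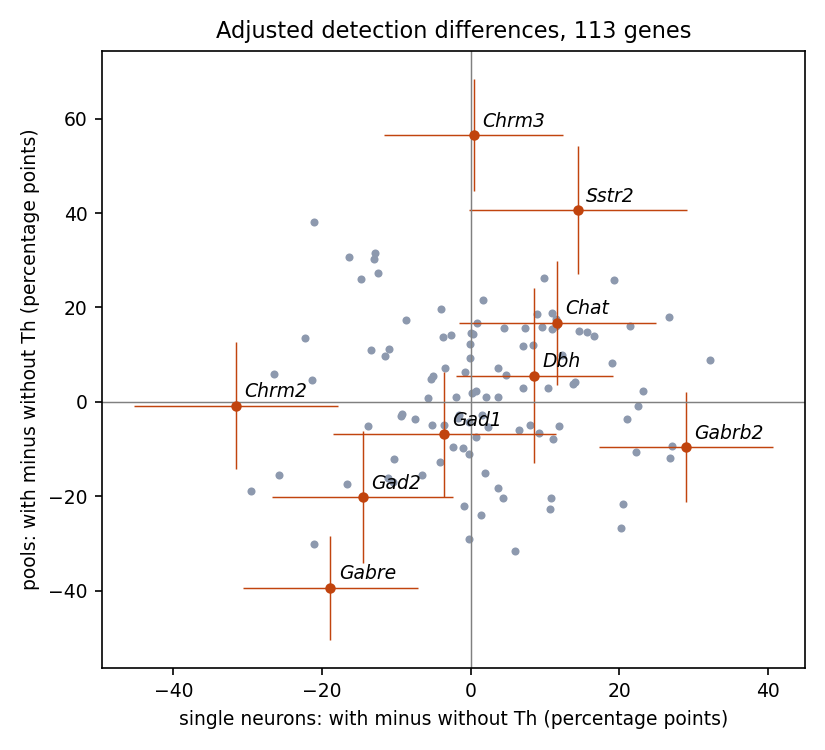
Adjusted difference in detection with Th minus without Th in single neurons (x axis) and in pools (y axis), in percentage points, 1 point per gene for 113 genes, with named genes in orange with SE bars. Chrm3 stood at 56.5 points in pools and 0.41 in single neurons, while Sstr2 and Gabre had the same sign in both and Trhr and Htr6 had opposite signs.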

How the data were processed

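The deposited values are raw Ct, the score of each assay in 218 columns as the authors exported them from a microfluidic RT-qPCR instrument after preamplification, with no normalization. An assay below its detection limit is blank. The chip of each sample is not stated in the sources used here, so it was not tested as a batch. Groups, animals and sides came from the labels.

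Second runs were averaged with the first, and so were the duplicate assays of Ptgs1, Ptgs2 and Htr1a. Genes detected in 10% to 95% of kept neurons were tested by detection. For each gene a linear model held a mean for every animal and group and a common slope on the number of other genes detected, Th left out. The difference per animal, with at least 2 neurons a group, was tested against 0 with limma 3.58.1 (R 4.3.3), two-sided with Benjamini-Hochberg adjustment at 0.05. Level, minus Ct relative to 35 genes, was tested likewise over at least 3 animals. Exact sign-flip permutation over animals was run for every gene tested. The code was tested on simulated data. As depth, each kept neuron had a value in 44 to 149 assays (median 69), and 95% Wilson intervals cover counting error only.

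Named genes were those called, or otherwise the 10 (detection) or 5 (level) with the smallest p in each direction, with the genes of catecholamine, acetylcholine and GABA synthesis, dopamine receptors, the genes that the study grouped with Th, and Fos, Gfap and Camk2a. The result of 1 such gene is not reported here. Members and lists were chosen with earlier results of these data known. Alternatives covered sample and gene filters, runs, the covariate, weights, centring, the unit of the test and leaving out animals. All 165 gene symbols matched RefSeq when case was ignored. Primer sequences were not used here.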

Additional observations from a re-analysis of the deposited data

Results flagged for a closer look

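Of 47 sets of values by animal, 4 held 1 value whose gap to its nearest neighbour, as a share of the whole range, was above Dixon's 95% critical value, which chance alone exceeds in about 1 in 20 sets. In RIPC animal 1 the difference in genes detected was 60.5, the left minus right difference in the share with Th was 100 percentage points, and the Oxtr level difference was 6.54 cycles. In sham animal 4 the adjusted Galr1 detection difference was 101 points (100 before adjustment), from 2 of 2 neurons with Th and 0 of 3 without.

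Among the values of 32 genes named by detection and 16 by level, 3 had every sham animal on one side of 0 and every RIPC animal on the other. With so few animals in each condition, some splits of this kind are likely by chance among that many values. The difference between conditions was not tested. The adjusted detection difference of Trhr averaged 18.2 points in 2 sham and -54.9 in 3 RIPC animals. That of Grpr averaged -50.4 points in sham and 60.5 in RIPC animals, but in sham animal 1 Grpr was in 0 of 5 and 0 of 2 neurons and the sign there came from the covariate alone. The Ache level difference averaged 2.05 cycles in sham and -0.60 in RIPC animals with a value.

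Among the 17 single neurons left out for fewer than 42 assays, 3 had a Th value (17.6%, Wilson interval 6.19 to 41.0%), at a Ct of 14.6, 14.6 and 15.4, near the median of the kept neurons.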

How the results depend on the processing

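The count of genes called by detection was 0 in every alternative run, with the smallest adjusted p between 0.207 and 0.968, and the count by level was 0 in all but one: with neurons as units and a term for animal it was 1 (Sstr4, -1.57 cycles). The comparison lies within animals, and the fit with neurons as units and no replicate block called 0 genes by detection and 0 by level. With 84 or more assays only naive animal 3 had enough neurons, so neither contrast nor the exact tests could be fitted there. In pools the count was 0 with a quadratic term for genes detected (Chrm3 56.5 points), with 3 pools a group (61.8) and with no term for the number of cells (51.2), and 0 or 1 when an animal was left out. The pool alternatives and the one without the 5 neurons with repeat runs were chosen after seeing the data. The difference in genes detected was 5.12 to 17.7 when an animal was left out and the left minus right share -11.4 to 16.3 points; with no sample filter the latter was -1.35.

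None of the named differences that turned sign was called. For detection, in points, with no term for genes detected Ache was 6.96, Fos 13.2 and Gad1 2.54. Gfap was -1.10 with a quadratic term and -0.37 with late Th counted as absent, where Fos was 0.26. Cartpt was -0.65 with weights. With 3 neurons a group Tacr1 was 17.5 and Galr1 -0.93. Ache was 0.28 without the neuron whose animal was in doubt. In naive animal 3 alone Oprk1 was -3.63, Hrh4 -3.70, Nmbr 9.10, Sstr3 12.4, Agtrap 10.4, Gabre 2.07, Trhr 3.35, Ache 8.44, Cartpt -6.41, Dbh -5.45 and Gad1 3.85. Of 32 named genes, 14 kept their sign but were over 1.5 times smaller with animals weighted by their neurons, among them Chrm2 (-11.7), Tacr1 (-4.65) and Oprk1 (12.7), and 21 were so on leaving out at least 1 animal. Cacna1g was 6.79 without naive animal 3, Trhr -5.70 and Tacr1 -5.96 without RIPC animal 1, Grpr 4.02 without RIPC animal 2, Drd2 -3.06 without sham animal 1, and Galr1 2.47 without sham animal 4. Leaving out an animal turned Ache (-12.3 to 7.24), Chat (-3.80 to 22.5), Fos (-9.65 to 5.19), Gad1 (-19.2 to 5.31), Gfap (-5.87 to 8.57) and Sstr2 (-1.94 to 24.5).

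For level, in cycles, Camk2a was -0.078 on first runs and -0.14 without repeat-run neurons, and Cartpt 0.60 on first runs. Drd1 was -0.23 with no term for genes detected, -0.40 with 3 neurons a group, and -0.12 with and -0.075 without an animal term over neurons. Ache was -0.29 with 3 neurons a group. With undetected values set below the lowest, Kcnn4 was 1.12, Cartpt 0.99, Chat 0.20 and Drd1 -0.95. Gfap was -0.40 in naive animal 3. Of 16 named genes, 10 kept their sign but were over 1.5 times smaller with animals weighted by their neurons, among them Creb1 (-0.57) and Oxtr (1.04), and 5 were so on leaving out at least 1 animal. Sstr4, Gabra2, Cartpt and Galr1 had values in the minimum of 3 animals. For these genes no animal with a value could be left out. Leaving out an animal turned Camk2a (-0.58 to 0.25), Drd1 (-0.53 to 0.68) and Chat (-1.62 to 0.40). The cause of these shifts was not tested.

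Precision is limited by 6 animals, of which 3 had 2 neurons in a group, and by the limit of detection, since a transcript below it has no value.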
